A study of Mus musculus with 56 samples.

Results

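The 4 groups of immunised mice that form a 2 by 2 design of antibodies against TNF and IL-6 were examined for effects that do not add. They are 52 of the 56 RNA sequencing libraries of the series, 13 per group, chosen by their labels, and the 4 libraries from mice without collagen-induced arthritis (no CIA) entered no test. All mice were male DBA/1, a mouse strain prone to arthritis after immunisation with collagen. The 52 mice had received chicken type II collagen on days 1 and 21. From day 21 they were injected into the peritoneum 2 times a week for 5 weeks with an isotype control IgG1 at 30 mg/kg, with the TNF antibody XT3.11 at 30 mg/kg (anti-TNF), with the IL-6 antibody MP5-20F3 at 10 mg/kg (anti-IL-6), or with both antibodies at these doses (combination). The total amount of antibody was therefore not the same in every group, since no isotype antibody is named for the anti-IL-6 and anti-TNF groups. RNA came from homogenised whole front paws on day 91, after dosing had ended, and each library is a separate mouse.

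The question put to each gene was whether the difference made by the IL-6 antibody depended on the TNF antibody. For every gene the interaction was the difference between combination and anti-TNF paws minus the difference between anti-IL-6 and isotype paws. It was taken on the log2(FPKM + 1) scale, where FPKM is fragments per kilobase of transcript and per M mapped fragments (M stands for mega). An interaction of 0 means that the effects of the antibodies add on this scale. A positive value means that combination paws held more of the transcript than the sum of the separate effects would give, and a negative value means that they held less.

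TNF and IL-6 are cytokines that drive inflammation of the joint lining, TNF mainly through NF-kB and IL-6 through its receptor subunit gp130 and STAT3. The genes that led the results belong to the circadian clock. In that clock the activators ARNTL (also called BMAL1) with CLOCK or NPAS2 bind E-box elements and switch on Per and Cry genes, the REV-ERB receptors (Nr1d1 and Nr1d2) and the factors Dbp, Tef and Hlf, which act on D-box elements. PER and CRY proteins repress the activators, and REV-ERB proteins repress Arntl, Npas2 and Nfil3, so that activator-driven genes and these latter genes peak at opposite times of day. The time of day at which paws were taken is not given in the labels.

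Estimated depth was similar in the groups, with group means from 45.63 to 47.63 M fragments and single libraries from 39.9 to 54.75 M. Marker genes of skin, muscle, joint lining and cartilage were found in every group. The mean log2(FPKM + 1) of 12 epidermis genes ranged from 7.63 to 10.08 over the 52 libraries and that of 19 skeletal muscle genes from 5.84 to 10.67. The synovial list lay between 4.49 and 6.17 and the cartilage list between 1.51 and 4.70. The number in the library titles, read here as a mouse number, followed the groups. Anti-IL-6 mice had numbers 1 to 20 (median 8.0), anti-TNF mice 2 to 27 (21.0), combination mice 28 to 42 (34.0) and isotype mice 43 to 55 (49.0). Mouse 20, labelled anti-IL-6, and mouse 2, labelled anti-TNF, were the exceptions to otherwise separate stretches.

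Of 14600 genes tested with limma, 17 had an interaction at an adjusted p under 0.05 (0.116%), 9 of them positive (0.0616%) and 8 negative (0.0548%). The positive genes were Dbp, Tef, Ciart, Nr1d1, Per3, Nr1d2, Bhlhe41, Hdac11 and Atg14. The negative genes were Nfil3, Npas2, Arntl, Jmjd6, Leo1, Zdhhc18, Kti12 and Usp39. Clock genes made up 10 of the 17, 7 that the activators drive and 3 of the opposite phase. The clock lists were written with earlier results of these data known, so this count is a description. Without adjustment 1376 genes had p under 0.05, 299 positive and 1077 negative, which is 2.05% and 7.38% of all genes. The median interaction of all genes was -0.05 with a median standard error of 0.121, and 63.7% of all genes had a negative value, the share against which counts of signs in a list are to be read.

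In their point estimates all 17 genes had a similar shape. They were chosen by the interaction, which is built from the comparisons below in the same mice. The counts in this paragraph therefore describe the 17 genes and are no separate evidence, also where the share of all genes stands beside them. In 17 of 17 the estimate of anti-IL-6 minus isotype and that of combination minus anti-TNF had opposite signs. In 17 of 17 anti-TNF paws deviated from isotype paws in the same direction as anti-IL-6 paws but by less, while combination paws lay within 0.2 log2 of isotype paws. Of all genes 34.7% had the same sign in anti-IL-6 minus isotype and in combination minus anti-TNF. For the other properties the share of all genes was not computed. Over all genes the median standard error of combination minus isotype was 0.0859, so the limit of 0.2 is not a narrow one. For Usp39 (0.17) and Atg14 (-0.19) anti-IL-6 minus isotype itself lay within it, so it cannot show a return to isotype there. For Zdhhc18 combination minus isotype was 0.11, against 0.27 for anti-IL-6 minus isotype. The difference between anti-IL-6 and isotype was itself past the test for 16 of the 17 (0.897% of all genes were). The remaining gene, Ciart, had an adjusted p of 0.0511 there. In the comparison of combination paws with anti-IL-6 paws 11 of the 17 were past the test (0.0959% of all genes were). No gene of the 17, and no gene of the 14600 (0%), passed in anti-TNF minus isotype, in combination minus anti-TNF or in combination minus isotype, where limma gave 767, 150 and 818 genes at an unadjusted p under 0.05.

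Dbp, a transcription factor of the PAR bZIP family and a direct output of the clock, had the largest interaction of all genes tested. Its FPKM ran from 35.6 over a median of 64.2 to 117.5 in isotype paws and from 18.3 over 35.4 to 63.3 in anti-TNF paws. It ran from 5.77 over 14.5 to 42.8 in anti-IL-6 paws and from 18.5 over 59.9 to 113.7 in combination paws. Of the 13 anti-IL-6 paws, 11 lay below the lowest isotype paw and 8 below the lowest combination paw, and the other 5 lay inside the combination range. Anti-TNF paws overlapped all 3 other groups. The highest anti-IL-6 value, 42.8, came from mouse 20. Group means were 64.4 ± 22.1 (isotype), 36.5 ± 15.4 (anti-TNF), 18.0 ± 10.7 (anti-IL-6) and 60.5 ± 28.6 FPKM (combination; SD, n = 13 each). Adding the separate effects would put combination paws at 8.28 FPKM, against 54.3 observed as the mean on the log scale. The interaction was 2.58 ± 0.354 (SE, 95% confidence interval 1.86 to 3.29, limma adjusted p = 3.36e-05). Without the TNF antibody the IL-6 antibody went with a lower Dbp (log2 -1.90 ± 0.251, adjusted p = 1.12e-05). Beside it the difference was 0.68 ± 0.251, which did not pass (adjusted p = 0.999).

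**Figure D1:**
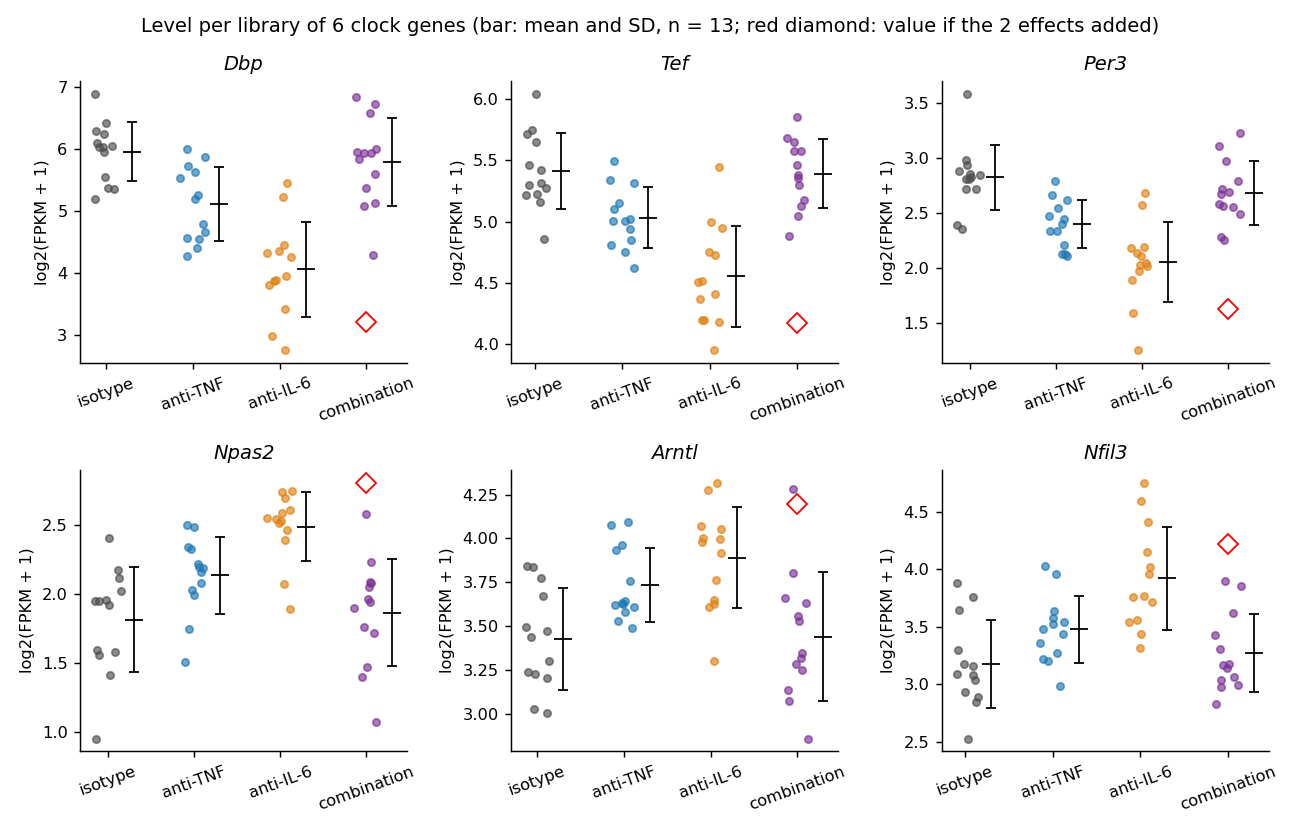
Level of 6 clock genes in each library, as log2(FPKM + 1), by antibody group. Circles are single mice, the bar and whiskers the mean and SD of 13 mice, and the red diamond the level expected in combination paws if the 2 effects added; Dbp, Tef and Per3 of combination paws lie above the diamond and Npas2 and Nfil3 below it in every mouse, while for Arntl 1 combination mouse lies above it.

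Tef, of the same factor family as Dbp, ran from 28.0 over 38.9 to 65.02 FPKM in isotype paws, from 23.6 over 31.1 to 44.0 in anti-TNF paws, from 14.5 over 21.7 to 42.7 in anti-IL-6 paws and from 28.6 over 40.6 to 56.9 in combination paws. Of the anti-IL-6 paws 10 of 13 lay below every isotype paw, and 10 below every combination paw. The interaction of Tef was 1.22 ± 0.174 (adjusted p = 4.10e-05), with 17.0 FPKM expected from adding and 41.0 observed. Per3, a period gene of the repressor arm, ran from 4.14 over 6.11 to 11.0 FPKM in isotype, from 3.33 over 4.30 to 5.92 in anti-TNF, from 1.39 over 3.13 to 5.44 in anti-IL-6 and from 3.79 over 5.40 to 8.41 in combination paws. Here 11 of 13 anti-IL-6 paws lay below the lowest isotype paw and 11 below the lowest combination paw. The interaction of Per3 was 1.06 ± 0.163 (adjusted p = 0.000178).

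The REV-ERB receptors, nuclear receptors that repress the activator genes, behaved alike in sign. Nr1d2 (REV-ERB beta) averaged 14.3 ± 2.48 FPKM in isotype, 11.4 ± 2.16 in anti-TNF, 8.44 ± 2.58 in anti-IL-6 and 13.0 ± 2.58 in combination paws, an interaction of 0.90 ± 0.156 (adjusted p = 0.00173). Nr1d1 (REV-ERB alpha), the most abundant clock gene of the 10, averaged 97.9 ± 22.0, 80.9 ± 18.2, 57.4 ± 23.0 and 96.5 ± 22.1 FPKM in the same order, an interaction of 1.09 ± 0.245 (adjusted p = 0.0420). For Nr1d2 11 of 13 anti-IL-6 paws lay below the lowest isotype paw, for Nr1d1 6 of 13. Ciart, a repressor that binds ARNTL, averaged 9.80 ± 4.02, 6.27 ± 1.47, 5.69 ± 2.34 and 9.59 ± 3.92 FPKM (interaction 1.18 ± 0.262, adjusted p = 0.0397). Bhlhe41, a helix-loop-helix repressor that competes for E-boxes, averaged 6.98 ± 1.87, 5.46 ± 1.32, 4.09 ± 1.10 and 6.51 ± 1.62 FPKM (interaction 0.86 ± 0.174, adjusted p = 0.0161). Anti-IL-6 paws overlapped isotype paws more widely for these than for Dbp or Per3, with 4 of 13 below the lowest isotype paw for Ciart and 7 of 13 for Bhlhe41.

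The genes of the opposite phase moved the other way. Npas2, a partner of ARNTL that can stand in for CLOCK, ran from 0.933 over 2.86 to 4.31 FPKM in isotype, from 1.84 over 3.55 to 4.65 in anti-TNF, from 2.70 over 4.83 to 5.70 in anti-IL-6 and from 1.10 over 2.85 to 4.97 in combination paws. Of the anti-IL-6 paws 10 of 13 lay above the highest isotype paw and 5 above the highest combination paw. Its interaction was -0.94 ± 0.181 (adjusted p = 0.00878). Nfil3, a repressor at the D-boxes that Dbp and Tef activate, ran from 4.76 over 7.50 to 13.7 FPKM in isotype, from 6.94 over 10.1 to 15.4 in anti-TNF, from 8.98 over 12.6 to 26.0 in anti-IL-6 and from 6.11 over 7.96 to 13.9 in combination paws. Its interaction was -0.95 ± 0.203 (adjusted p = 0.0242), and 6 of 13 anti-IL-6 paws lay above both the highest isotype and the highest combination paw. Arntl, the core activator, averaged 9.95 ± 2.21, 12.4 ± 2.03, 14.1 ± 2.91 and 10.2 ± 3.12 FPKM in isotype, anti-TNF, anti-IL-6 and combination paws (interaction -0.76 ± 0.161, adjusted p = 0.0242). For Arntl 8 of 13 anti-IL-6 paws lay above the highest isotype paw and 1 above the highest combination paw.

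Clock genes were grouped in 3 lists. Of 10 activator-driven genes 7 were called, all positive (0.0616% of all genes were). All 10 had positive values (5303 of the 14600 genes had), with a median of 0.98 against -0.05 over all genes. The 3 without a call were Hlf, the third PAR bZIP factor (0.51, adjusted p = 0.264), and the period genes Per1 (0.29, 0.616) and Per2 (0.17, 0.743). Anti-IL-6 minus isotype was -0.34 for Hlf, -0.04 for Per1 and 0.01 for Per2. Of 5 antiphase genes 3 were called, all negative (0.0548% of all genes were), with a median of -0.76. The other 2 were the repressor Cry1 (-0.50, adjusted p = 0.0806) and the activator Clock (-0.28, 0.485). Cry genes are also switched on by the activators, so the place of Cry1 on the antiphase list is a choice of grouping. That choice, like the lists themselves, was made with earlier results of these data known. Of 10 further clock genes none was called, 8 had positive values and 5 an unadjusted p under 0.05. Nearest to the threshold was Cipc, which binds CLOCK and inhibits it (0.31, adjusted p = 0.0796). Usp2, a deubiquitinase under clock control, had 0.66 (0.347).

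The promoters of the called genes were searched, on both strands, for the elements through which these factors act, in the 250 bases before each start site (RefSeq, GRCm38.p6). Of the 17 genes 16 matched the promoter table. The E-box CACGTG lay in 3 of the 16, Ciart, Bhlhe41 and Tef, and in 6.02% of 32851 promoters. The D-box TTANGTAA lay only in Per3 among the called genes (2.06% of promoters). The REV-ERB and ROR element TAGGTCA lay in Nfil3 and in Leo1, both negative genes (2.23% of promoters). These matches are letters only and no binding was measured. The stretches printed here show Ciart and Per3, which hold several copies of an element, the E-box of Bhlhe41, and the element of Leo1, which is not on the clock lists; capitals mark the element as read on the gene's strand.
Ciart, chr3:95882259-95882358, minus strand: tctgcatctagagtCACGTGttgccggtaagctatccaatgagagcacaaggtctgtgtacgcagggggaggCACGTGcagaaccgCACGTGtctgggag
Bhlhe41, chr6:145865561-145865620, minus strand: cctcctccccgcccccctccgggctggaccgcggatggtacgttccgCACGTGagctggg
Per3, chr4:151044806-151044885, minus strand: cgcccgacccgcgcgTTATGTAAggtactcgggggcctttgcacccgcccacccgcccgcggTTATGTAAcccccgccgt
Leo1, chr9:75441434-75441493, plus strand: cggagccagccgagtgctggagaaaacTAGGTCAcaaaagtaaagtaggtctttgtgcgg
The 3 E-boxes of Ciart begin 116, 58 and 44 bases before its start site, and the 2 D-boxes of Per3 205 and 158 bases before. The E-box of Bhlhe41 begins 153 bases and the element of Leo1 63 bases before the start.

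The other 7 called genes had smaller interactions, of 0.58 or less in size. Hdac11, a histone deacetylase, averaged 6.57 ± 1.04, 5.59 ± 0.727, 4.90 ± 1.13 and 6.62 ± 0.821 FPKM in isotype, anti-TNF, anti-IL-6 and combination paws (interaction 0.58 ± 0.115, adjusted p = 0.0115). Atg14, a subunit of the lipid kinase complex that starts autophagy, averaged 4.88 ± 0.411, 4.71 ± 0.291, 4.16 ± 0.339 and 4.91 ± 0.223 FPKM (interaction 0.24 ± 0.0505, adjusted p = 0.0242). Both were lowest in anti-IL-6 paws, and 10 of 13 anti-IL-6 paws were below every combination paw for Atg14. Leo1, a subunit of the PAF1 complex that travels with RNA polymerase II, ran from 11.5 over 13.2 to 13.9 FPKM in isotype, from 11.2 over 14.2 to 16.5 in anti-TNF, from 13.8 over 15.4 to 17.7 in anti-IL-6 and from 10.2 over 13.0 to 15.3 in combination paws. Its interaction was -0.37 ± 0.0692 (adjusted p = 0.00679), with 12 of 13 anti-IL-6 paws above the highest isotype paw. Jmjd6, a hydroxylase that modifies lysines of splicing factors, averaged 16.0 ± 1.84, 18.4 ± 2.05, 19.6 ± 2.03 and 16.9 ± 0.969 FPKM (interaction -0.38 ± 0.0775, adjusted p = 0.0161). Zdhhc18, a palmitoyltransferase, had -0.35 ± 0.0779, Kti12, a factor of the Elongator pathway of tRNA modification, -0.29 ± 0.0636 (adjusted p = 0.0397 for both), and Usp39, a splicing factor of the tri-snRNP, -0.22 ± 0.0505 (0.0479). All 5 negative genes of this set were highest in anti-IL-6 paws.

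**Figure D2:**
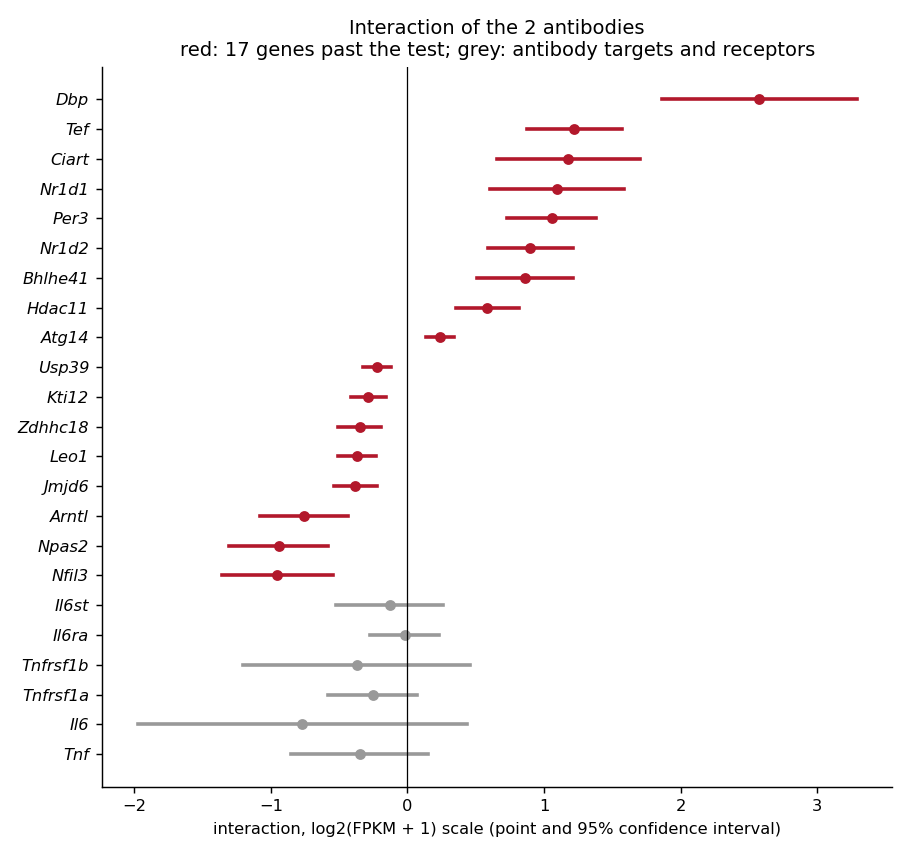
Interaction of the 2 antibodies, log2(FPKM + 1) scale, for the 17 genes past the test (red) and the 6 antibody targets and receptors (grey). Points are estimates and lines 95% confidence intervals; Dbp stands at 2.58, the other called genes between -0.95 and 1.22, and the intervals of all 6 targets and receptors include 0.

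The gene with identifier ENSMUSG00000059824.12, Dbp, spans 45705088 to 45710203 of chromosome 7 on GRCm38. Per3 spans 151003652 to 151044665 of chromosome 4, Npas2 39193731 to 39363236 of chromosome 1 and Tef 81802421 to 81826863 of chromosome 15. Several called genes overlap a neighbour in GENCODE, and no source used here says if counting respected strand. The neighbours named below were not called, and no full search for overlaps is reported here. Sphk2, on the strand opposite Dbp, had an interaction of -0.14 (adjusted p = 0.690), and Thra, opposite Nr1d1, 0.08 (0.730). Camta1, on the strand of Per3, had 0.29 (0.574), Mettl23, opposite Jmjd6, 0.04 (0.899), and Txndc12, on the strand of Kti12, -0.26 (0.567).

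Just outside the threshold stood Tnfrsf12a, the receptor of the cytokine TWEAK, with an interaction of -0.58 ± 0.133 and an adjusted p of 0.0511. Its mean FPKM was 35.2 in isotype, 41.4 in anti-TNF, 50.8 in anti-IL-6 and 39.8 in combination paws. Just inside stood Usp39 at 0.0479. The transcriptional corepressor Rere followed with 0.24 (adjusted p = 0.0768).

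The antibody targets and their receptors showed no call among 6. Il6 ran from 0.0239 over 0.970 to 8.24 FPKM in isotype, from 0.0664 over 0.611 to 7.42 in anti-TNF, from 0.142 over 1.98 to 15.8 in anti-IL-6 and from 0.120 over 0.280 to 6.16 in combination paws. The groups overlapped almost wholly, and the interaction of -0.77 ± 0.599 (adjusted p = 0.649) had an interval from -1.97 to 0.43, which holds values of either sign. Tnf averaged 1.64 ± 0.567, 2.19 ± 1.45, 2.08 ± 0.940 and 1.76 ± 0.991 FPKM (-0.35 ± 0.250, adjusted p = 0.626). Among the TNF receptors, Tnfrsf1a had -0.25 ± 0.162 (0.598) and Tnfrsf1b -0.37 ± 0.415 (0.746). The IL-6 receptor Il6ra had -0.02 ± 0.127 (0.953) and gp130 (Il6st) -0.13 ± 0.195 (0.815). All 6 values were negative, with a median of -0.30.

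Genes downstream of the cytokines had no call either. All 15 IL-6 and STAT3 response genes tested had negative values (median -0.43), as had all 21 TNF and NF-kB response genes (median -0.45) in the model without tissue terms. Of the NF-kB list Relb, an NF-kB subunit, alone had an unadjusted p under 0.05. Relb averaged 12.6 FPKM in isotype, 14.4 in anti-TNF, 16.4 in anti-IL-6 and 12.9 in combination paws (-0.48 ± 0.227, adjusted p = 0.505). Saa1, an acute phase protein, had the values 4.99, 10.4, 9.95 and 5.06 FPKM (-1.45 ± 0.758, adjusted p = 0.557). Socs3, the feedback inhibitor of STAT3 signalling, had 25.5, 25.9, 42.8 and 21.8 FPKM (-0.70 ± 0.446, 0.598), and Ccl2, a chemokine for monocytes, 14.1, 16.8, 26.5 and 9.76 FPKM (-1.03 ± 0.616, 0.590). Standard errors of all 4 were above the median of 0.121 over all genes.

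Growth-related lists had no call either. In the model without tissue terms all 20 cell cycle genes were negative (median -0.29), against 63.7% of all genes. In that model 14 of them had an unadjusted p under 0.05, against 7.38% of all genes. Birc5, the mitotic factor survivin, averaged 31.5, 37.6, 41.4 and 34.6 FPKM in isotype, anti-TNF, anti-IL-6 and combination paws (-0.48 ± 0.143, adjusted p = 0.216). All 16 ribosome biogenesis genes were negative (median -0.16), 6 with an unadjusted p under 0.05. They were led by Nop56, a core protein of small nucleolar particles (-0.33 ± 0.0880, adjusted p = 0.137), and Rrs1, an assembly factor of the large subunit (-0.31 ± 0.0843, 0.170). Of 18 AP-1 and immediate early genes 12 were negative (median -0.14), near the 63.7% of all genes. Fosl1, an AP-1 subunit, averaged 2.14, 2.10, 4.79 and 2.11 FPKM (-0.87 ± 0.260, adjusted p = 0.205). Of 12 genes that respond to glucocorticoids 8 were positive (median 0.11), led by the factor Klf9 (0.56 ± 0.172, adjusted p = 0.227). Pdk4, a kinase that restrains glucose oxidation, had 1.61 ± 0.696 (0.449). The interferon response list was centred near 0 in the model without tissue terms (15 of 23 positive, median 0.04). In the heat shock list 9 of 12 were negative (median -0.10), also near that share.

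**Figure D3:**
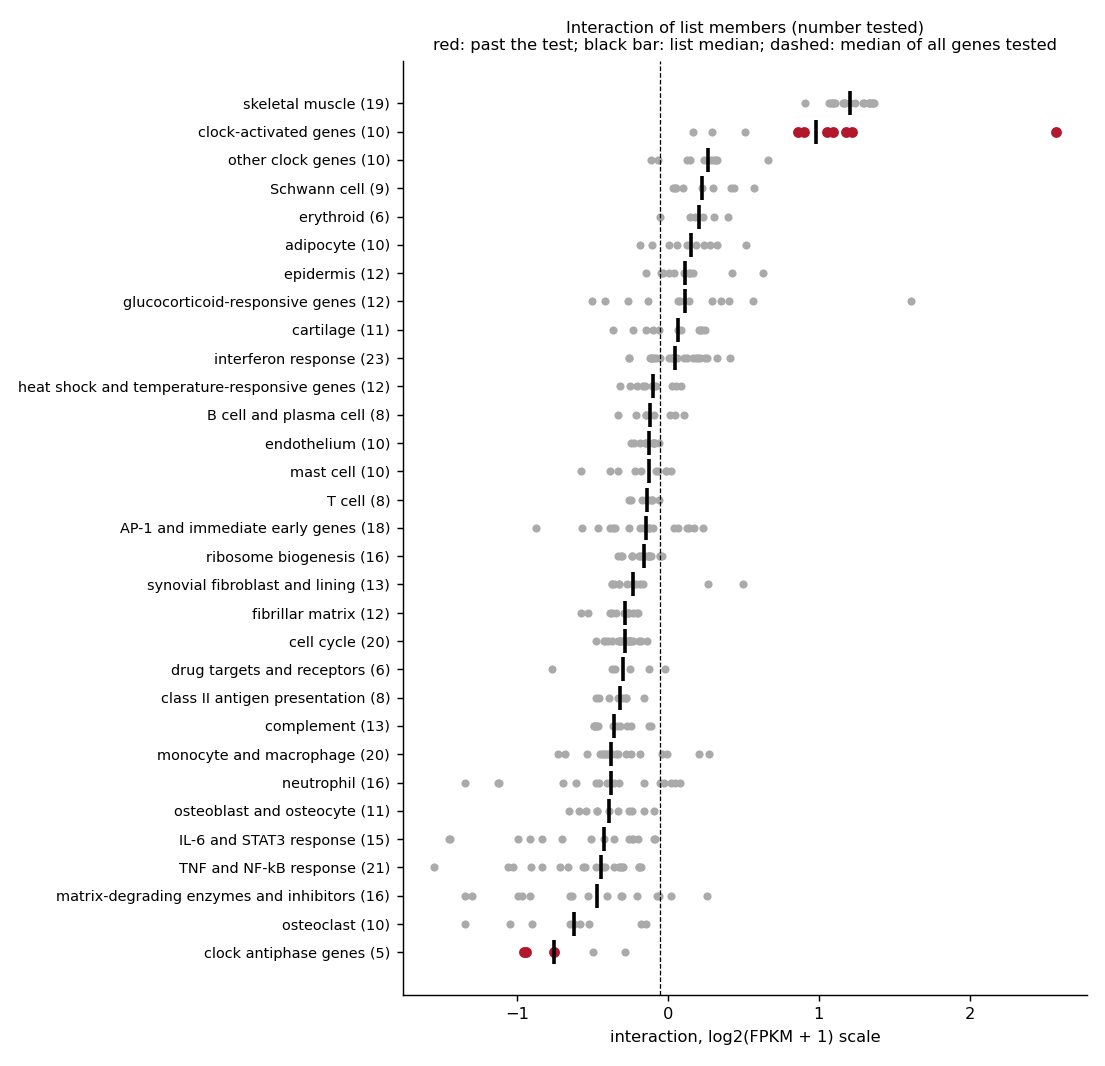
Interaction of every tested member of 31 gene lists, log2(FPKM + 1) scale, lists ordered by their median (black bar) with the number of members tested in brackets. Red points passed the test and the dashed line is the median of all 14600 genes, -0.05; red points lie only in the 2 clock lists, and the skeletal muscle list lies farthest to the right as a whole, with no red point.

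The lists of cell types held no called gene. In whole paws fewer cells of a type and less RNA per cell cannot be told apart. All 19 skeletal muscle genes were positive, from 0.91 to 1.37 with a median of 1.21, and none passed: Myh1, a fast myosin, averaged 742, 626, 477 and 817 FPKM in isotype, anti-TNF, anti-IL-6 and combination paws (1.33 ± 0.642, adjusted p = 0.514). The summed muscle level, as the mean log2(FPKM + 1) of the list, was 8.81 ± 1.18 (range 6.58 to 9.99), 8.49 ± 1.33 (6.38 to 10.67), 8.12 ± 1.29 (5.84 to 10.01) and 9.01 ± 1.10 (7.21 to 10.56) in the same order. Muscle thus had the same order of groups as the clock-activated genes, apart from combination and isotype, with ranges that overlapped nearly throughout. With muscle and epidermis levels in the model 15 of the 17 calls were kept, all but Kti12 and Zdhhc18, among 59 genes in all. With muscle alone 12 of the 17 were kept among 23, Nfil3, Nr1d1 and Usp39 being lost as well. Dbp had an interaction of 2.48 ± 0.357 with both terms and of 2.55 ± 0.369 with muscle alone, Tef 1.03 ± 0.147 and 1.05 ± 0.153, and Npas2 -0.80 ± 0.172 and -0.82 ± 0.175.

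Markers of bone and of inflammatory cells had negative medians in the model without tissue terms. All 10 osteoclast genes were negative (median -0.62): Acp5, the acid phosphatase TRAP, averaged 183, 220, 254 and 156 FPKM (-0.90 ± 0.684, adjusted p = 0.644). All 11 osteoblast and osteocyte genes (median -0.39), all 13 complement genes (-0.36), all 8 class II antigen presentation genes (-0.32) and all 12 fibrillar matrix genes (-0.28) were negative. Of the neutrophil genes 13 of 16 were negative (median -0.38), of the monocyte and macrophage genes 18 of 20 (-0.38) and of matrix-degrading enzymes and their inhibitors 14 of 16 (-0.47). The neutrophil level was 2.94 ± 1.10 in isotype, 3.22 ± 1.08 in anti-TNF, 3.14 ± 0.927 in anti-IL-6 and 2.97 ± 0.819 in combination paws. With it in the model 21 genes were called, including 16 of the 17. Medians nearer to 0 were found for synovial fibroblasts (-0.24), T cells (-0.14), mast cells (-0.13), endothelium (-0.13) and B and plasma cells (-0.12). Cartilage (0.07), epidermis (0.11), adipocytes (0.15), erythroid cells (0.20) and Schwann cells (0.23) had positive ones.

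The sign of many list medians changed when tissue levels entered the model. With muscle and epidermis levels together 17 of the 31 medians changed sign. With muscle alone 10 did (skeletal muscle itself in both fits), and with epidermis alone 1, its own. A list fitted with the mean level of its own genes is brought near 0 by construction, so its change of sign is no finding. The fits with a single tissue were added after the data were seen. With both terms the TNF and NF-kB list had 14 of 21 positive values (median 0.08 in place of -0.45), and with muscle alone 6 of 21 (-0.01). The IL-6 and STAT3 list had 9 of 15 (0.03) and 7 of 15 (-0.01), the antibody targets 5 of 6 (0.05) and 3 of 6 (0.01), and the osteoclast list 8 of 10 (0.09) and 2 of 10 (-0.13). Fibrillar matrix genes turned to 12 of 12 positive in both fits (0.58 and 0.35). With both terms the interferon list had 22 of 23 positive values (0.34) with 1 gene called, and with muscle alone 21 of 23 (0.22) with none. The clock lists kept their directions: with both terms 10 of 10 activator-driven genes were positive (0.82, 7 called) and 5 of 5 antiphase genes negative (-0.79, 4 called), and with muscle alone the same numbers had these signs (0.89 with 6 called, -0.80 with 3 called). Cell cycle genes were negative in 19 of 20 (-0.16 in place of -0.29) with both terms and in 20 of 20 (-0.15) with muscle alone. The share of them that was negative at an unadjusted p under 0.05 in limma fell from 70% to 20% and 15%. Of all genes 6.26% and 4.16% were so in these 2 fits. Median-of-ratios scaling changed the sign of no list's median, and 52.7% of all genes were then negative.

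Across the transcriptome the arms of the design more often had opposite signs than the same sign in the model without tissue terms. The second arm had no called gene. The comparison of arms was not repeated with tissue levels in the model. In those fits 47.8% (muscle and epidermis) and 48.6% (muscle alone) of all genes had a negative interaction, against 63.7% without them. The difference of anti-IL-6 from isotype and that of combination from anti-TNF share no library. Over the 14600 genes their Pearson correlation was -0.463 and their Spearman correlation -0.358, given as a description since genes are not independent, and 34.7% of genes had the same sign in both. Without the TNF antibody 131 genes were called, 100 higher (0.685%) and 31 lower (0.212%) in anti-IL-6 than in isotype paws. Of these 131 genes 28 had the same sign beside the TNF antibody and 103 the opposite sign. Their median size was 0.24 in the first comparison, and in the second the median along the same direction was -0.04. Taken the other way, 8 genes were higher (0.0548%) and 6 lower (0.0411%) in combination than in anti-IL-6 paws, and 13 of these 14 had the opposite sign in anti-TNF minus isotype. Of all genes 42.7% had the same sign in this pair of comparisons. Among the 14 genes 11 were also called for the interaction, which is built from these comparisons, and among the 131 genes 16 were. The signs of these shared genes are therefore no separate evidence.

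**Figure D4:**
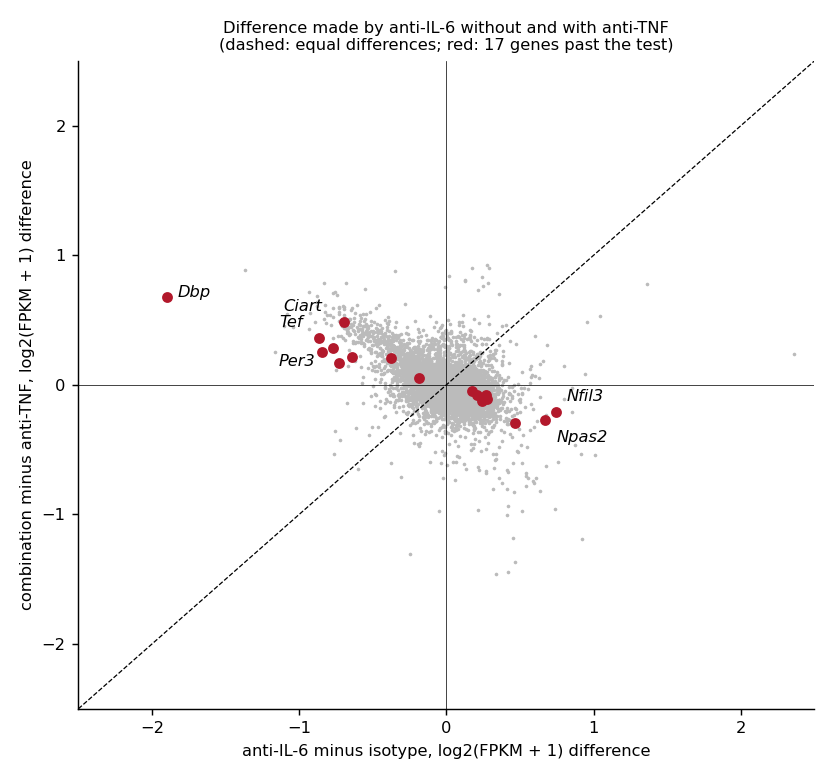
Difference made by the IL-6 antibody without the TNF antibody (x axis, anti-IL-6 minus isotype) against that beside it (y axis, combination minus anti-TNF), both as log2(FPKM + 1) differences, 1 point per gene for 14600 genes. Values are from the model without tissue terms. On the dashed line the effects would add; the 17 called genes (red) lie in the upper left and lower right quadrants, and Dbp stands farthest left among them at -1.90 and 0.68.

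The additive part of the design gave no call. Averaged over mice with and without the TNF antibody, the IL-6 antibody changed 0 of 14600 genes by limma (597 at an unadjusted p under 0.05, smallest adjusted p 0.300). Averaged over mice with and without the IL-6 antibody, the TNF antibody changed 0 (973 unadjusted, smallest adjusted p 0.682). For Dbp these averages were -0.61 ± 0.177 and 0.44 ± 0.177.

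The order of the groups in these genes was also the order of the mouse numbers. In 14 of the 17 genes the group means ran in 1 direction from anti-IL-6 over anti-TNF and combination to isotype, and in 12 of these the no CIA mice (numbers 56 to 60) continued the order. A clock score, the mean log2 level of the 10 activator-driven genes minus that of the 5 antiphase genes, was 0.0437 ± 0.452 in anti-IL-6, 0.612 ± 0.361 in anti-TNF, 1.11 ± 0.460 in combination, 1.22 ± 0.436 in isotype (n = 13 each) and 1.93 ± 0.397 in no CIA paws (n = 4). Dbp averaged 102.5 ± 34.3 FPKM without CIA. With the mouse number as a linear term, chosen after the data were seen, limma called 0 genes (612 at an unadjusted p under 0.05). Dbp then had an interaction of 0.99 ± 1.04 and Tef 0.35 ± 0.508, against errors of 0.354 and 0.174 without that term. Treatment and position in the mouse numbering therefore cannot be told apart here.

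Within groups the relation of Dbp to mouse number did not pass a permutation test. With 13 mice per group over short stretches of numbers, such a test can miss a relation. The slopes were all positive, 0.555 (isotype), 0.269 (anti-TNF), 0.279 (anti-IL-6) and 0.134 (combination) log2 per 10 mouse numbers. Pearson's r between log2(FPKM + 1) of Dbp and the number was 0.450 in isotype (permutation p = 0.121, adjusted over the 4 groups 0.484), 0.293 in anti-TNF (0.358, 0.715), 0.187 in anti-IL-6 (0.541, 0.722) and 0.082 in combination paws (0.786, 0.786; n = 13 each, two-sided). Spearman's rho was 0.429 (permutation p = 0.144), 0.505 (0.0824), -0.011 (0.979) and 0.203 (0.507). Without the 2 mice whose numbers lie farthest from the median, r was 0.363, 0.699, -0.217 and 0.197, with no test of these values. The anti-TNF value was then higher, and the anti-IL-6 value had the opposite sign. Mouse 20, labelled anti-IL-6 but numbered among the anti-TNF mice, had 42.8 FPKM of Dbp, and mouse 2, labelled anti-TNF but numbered among the anti-IL-6 mice, had 37.2. Without these 2 mice 19 genes were called, including all 17.

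**Figure D5:**
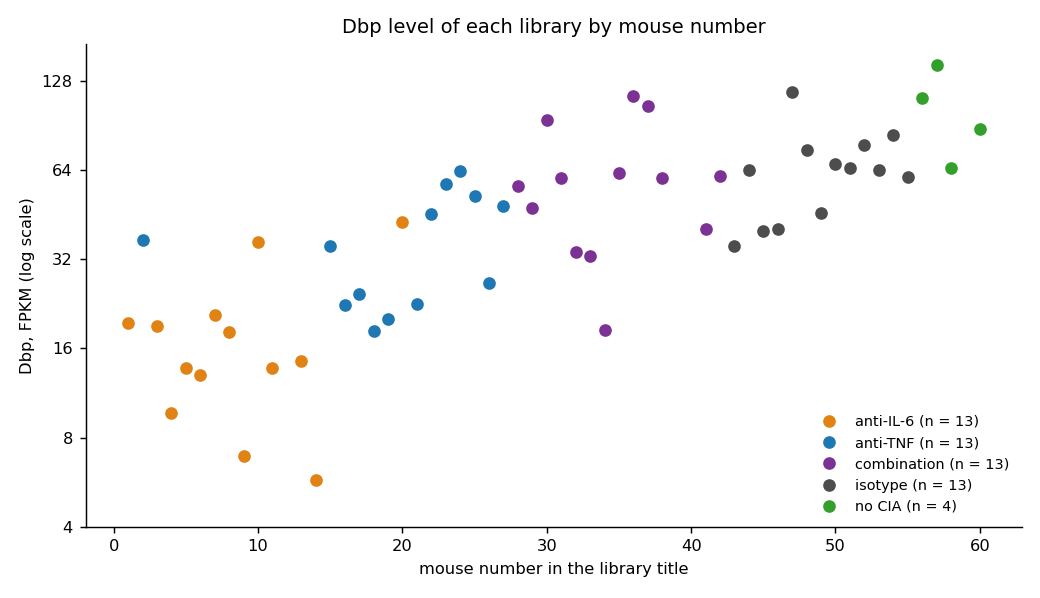
FPKM of Dbp in each of 56 mice (log axis) against the mouse number in the library title, coloured by group. The anti-IL-6 mice sit at the lowest numbers and mostly the lowest levels, and isotype and no CIA mice at the highest numbers; mouse 20 (anti-IL-6, 42.8) and mouse 2 (anti-TNF, 37.2) lie outside the stretch of numbers of their groups.

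The index numbers in the titles fall into 5 stretches within which mouse numbers ascend, called index runs here. Only runs 2 and 5 hold all 4 groups. Their mice are among those that chose the 17 genes, so signs shared with the pooled values are a description. Run 2 has 1 isotype mouse, and run 5 has 1 anti-IL-6 and 1 combination mouse, which leaves these groups without a spread. Within run 2 (1 isotype, 2 anti-TNF, 4 anti-IL-6 and 4 combination mice) all 17 genes had the sign of the pooled interaction, with 2.49 for Dbp, 1.26 for Tef and -1.04 for Npas2. Within run 5 (5, 6, 1 and 1 mice) 16 of 17 had it, with 0.46 for Dbp, 0.61 for Tef and -0.27 for Npas2, and Arntl had 0.20. With the run as a term in the model 22 genes were called, all 17 among them, and Dbp had an interaction of 2.76 ± 0.353.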

How the data were processed

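Paired-end libraries of the Illumina TruSeq Stranded mRNA kit were sequenced on a NovaSeq system at a stated 80 M raw reads per sample, per the labels' protocols. DESeq2, with no version, is the tool named in the submitters' processing notes. The sources used here do not give the aligner, genome build or annotation. The deposited table holds FPKM values of 53431 features, the unit being read from the values because no header states it. Depth was estimated from the steps of low FPKM values of single-exon genes of at least 400 bases, where 74.8% to 81.2% of values were whole multiples within 0.05 of a step, so whole counts were not rebuilt. No 2 libraries were identical (highest correlation 0.994).

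The 52 libraries entered a limma 3.58.1 fit (R 4.3.3, trended and robust prior) of log2(FPKM + 1) with 4 group means, leaving 48 residual degrees of freedom. Tested genes reached a mean FPKM of 1 or more in 1 of the groups. P-values are two-sided, adjusted by Benjamini-Hochberg over 14600 genes, with a threshold of 0.05. Fold changes on this scale understate changes of low genes. Errors are SE for differences and SD between mice for levels. The fit was tested on simulated data. Permutation tests used 100000 resamples.

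The comparison and the gene lists were chosen with earlier results of these data known. The rule for named genes took the antibody targets and receptors, the 8 highest and 8 lowest called interactions with a proper symbol and a mean FPKM of at least 2, the called members of lists with the smallest p, and the members of the 2 main clock lists. Atg14, the genes nearest the threshold, the overlapping neighbours and the uncalled members of other lists were named after their values were seen. Symbols were found for 52207 of 52244 Ensembl identifiers, and 51027 matched GENCODE M21. Alternatives were pseudocounts of 0.1 and 10, no filter, a filter of 5, all 56 libraries, covariates, median-of-ratios scaling, other priors, untransformed FPKM and leaving out each library. Mouse number, muscle and epidermis as single covariates, and the values within runs were added after the data were seen. Other steps ran in Python 3.11.15 (scipy 1.17.1, pandas 2.3.3, numpy 2.4.6, matplotlib 3.10.9).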

Additional observations from a re-analysis of the deposited data

Results flagged for a closer look

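For 17 genes the difference between anti-IL-6 and isotype paws was itself different from that between combination and anti-TNF paws, by limma's test of the interaction. The activator-driven clock genes had interactions of 2.58 (Dbp), 1.22 (Tef), 1.18 (Ciart), 1.09 (Nr1d1), 1.06 (Per3), 0.90 (Nr1d2) and 0.86 (Bhlhe41). The antiphase clock genes had -0.95 (Nfil3), -0.94 (Npas2) and -0.76 (Arntl). Outside the clock lists stood 0.58 (Hdac11), 0.24 (Atg14), -0.38 (Jmjd6), -0.37 (Leo1), -0.35 (Zdhhc18), -0.29 (Kti12) and -0.22 (Usp39). All are on the log2(FPKM + 1) scale. The check for single outlying samples was run only among the no CIA mice, for Dbp and the clock score, and flagged none. It was not run in the groups of 13 mice.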

How the results depend on the processing

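The 17 interactions became 10 with no filter (all 10 among the 17), 59 with muscle and epidermis covariates (15 of the 17), 39 with epidermis alone (all 17), 30 with median-of-ratios scaling (13 of the 17; 16 positive, 14 negative) and 0 with mouse number, where Atg14 turned to -0.0012. Under the other 9 alternatives that kept all 52 libraries or added no CIA, the count was 15 to 23, with 23 for muscle alone (12 of the 17). On untransformed FPKM it was 15, Nfil3 and Ciart being lost. The 131 calls of anti-IL-6 against isotype became 58 with no filter, 20 with index run, 450 with muscle and epidermis, 411 with epidermis alone, 231 with median-of-ratios scaling and 0 with mouse number (744 at an unadjusted p under 0.05). The cause was not tested.

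Leaving out each mouse in turn gave 12 to 41 interactions, 41 without anti-TNF replicate 7, and 12 of the 17 were called in all 52 fits. Usp39 was called in 14, Nr1d1 in 20, Zdhhc18 in 21, Ciart in 22 and Kti12 in 25. Anti-IL-6 against isotype ranged from 51 to 225. Leaving out replicates 1, 7, 9, 10, 11 and 13 of anti-IL-6 gave 86, 225, 56, 87, 69 and 51, and leaving out replicates 1, 6, 8 and 12 of isotype gave 71, 68, 59 and 82. Combination against anti-TNF and both average effects kept 0 calls in every fit run. No paired analysis was possible because replicate numbers follow deposition order and pair no mice. Depth per gene is unknown, and each mouse gave 1 library.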
